A study of Mus musculus with 12 samples.

Results

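Interferon-stimulated genes are the genes that a cell switches on when interferon binds its receptor. The set described here was a list of 37 such genes, and a gene was counted as measured where the arrays held a transcript cluster with exactly 1 gene symbol and that symbol was the gene. By this rule 31 of the 37 listed genes were measured, of 19938 genes in the series. Isg15, Gbp2, Gbp6, Igtp and Irgm2 lay only on clusters that carry several symbols and were left out, and Ifi44 was not listed in the annotation used here. Where a gene had more than 1 cluster, which was so only for Irf1, the cluster with the highest mean signal was taken.

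The series measured RNA on 12 Affymetrix arrays from KK-Ay mice with type 2 diabetes (T2D) and KK control mice. KK-Ay mice carry the A-y allele, which drives agouti outside the skin and gives obesity and diabetes on a KK background, and KK mice share that background without the allele. The 12 arrays fall by title into 6 groups of 2, called 1 (titled 1-3 and 1-5), 6K, 6Y, 16Y, 42WKK and 42Y. Groups 42WKK and 42Y are the KK and KK-Ay mice of 42 weeks. For the other 4 groups no source used here gives the age array by array, and for group 1 none gives the strain. No treatment other than laboratory chow was described. The sample tags and the series design call 6K and 42Y by opposite names (T2D in one, control in the other), so groups are named here by title only. The agouti cluster had a log2 signal from 6.78 to 7.06 in the 6 arrays whose title ends in Y and from 5.20 to 5.51 in the 6 others. Agouti thus went with the letter in the titles and against the tags that call 6K T2D and 42Y a control. The sample tags name blood as the tissue and the methods name liver. The hepatocyte marker list had array medians from 13.07 to 13.25, the T cell list from 4.38 to 4.57, and 5 of 8 measured T cell markers lay below the array median in all 12 arrays. Whether each array stands for its own animal is not stated, and the p-values below rest on the spread between arrays, which may be technical.

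Type I and type III interferons signal through the kinases JAK1 and TYK2 to a complex that holds STAT2 and IRF9 and binds the interferon-stimulated response element (ISRE) in gene promoters. Interferon gamma signals through JAK1 and JAK2 and acts on a different element, the GAS. The induced proteins sense viral nucleic acid, block viral RNA and its translation, coat pathogen membranes and feed peptides to MHC class I. In liver, hepatocytes, Kupffer cells and sinusoidal endothelial cells can all express them, and in whole tissue a change in the number of cells of a type cannot be told apart from a change in RNA per cell.

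The stretches below are shown because they come from the members with the clearest differences between groups that had a promoter window and held an ISRE core. They are RefSeq sequences of build GRCm38.p6, written 5′ to 3′ along the gene, with the ISRE core in capitals. The core searched was GAAANNGAAA, which reads TTTCNNTTTC on the other strand. The first 3 are the 150 bases that end just before the annotated start, and the other 2 are 30 bases around a core that lies past the start. They lie at chr19:34640739-34640888 (plus strand) for Ifit1, chr11:48871421-48871570 (minus strand) for Irgm1, chr3:142530186-142530335 (plus strand) for Gbp7, chr4:40239804-40239833 (minus strand) for Ddx58 and chr2:62646206-62646235 (minus strand) for Ifih1.
Ifit1: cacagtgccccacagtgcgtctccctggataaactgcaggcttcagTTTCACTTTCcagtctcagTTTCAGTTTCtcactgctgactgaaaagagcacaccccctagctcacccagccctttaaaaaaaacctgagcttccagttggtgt
Irgm1: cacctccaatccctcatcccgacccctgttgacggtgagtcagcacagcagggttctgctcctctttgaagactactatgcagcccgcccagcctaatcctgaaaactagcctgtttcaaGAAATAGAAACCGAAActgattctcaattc
Gbp7: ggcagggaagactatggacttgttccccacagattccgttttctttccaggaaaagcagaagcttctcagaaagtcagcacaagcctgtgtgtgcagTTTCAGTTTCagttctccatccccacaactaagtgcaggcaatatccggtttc
Ddx58: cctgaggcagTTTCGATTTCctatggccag
Ifih1: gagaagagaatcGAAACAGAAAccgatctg
Ifit1 held 2 separate cores, Irgm1 held 2 that overlap by 4 bases, and the other genes held 1 each. RefSeq windows of 250 bases before and 50 after the start were matched for 22 of the 31 measured members. These genes had 27 windows, and an ISRE core was present in 14 of the 27 (13 genes), against 3.44% of all 32851 windows. A GAS core (TTCNNNGAA, the same on both strands) was present in 6 of the 27, against 8.3% of all windows. The 9 members with a window and no ISRE core in it were Irf1, Irf7, Irf9, Ifit2, Oasl1, Oasl2, Psmb8, Psmb9 and Tap1. No window was used for Usp18, Mx1, Mx2, Oas2, Dhx58, Zbp1, Iigp1, Ifi27 and Parp14. A match is a description of the letters in these windows and is not a measured binding site.

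Over the 6 groups, most members had their highest mean signal in 6Y. This was so for 19 of 31 members, against 13.8% of all 35556 clusters. The lowest group mean was that of group 1 in 10 members, against 16.1% of all clusters, and that of 16Y in 8, against 12.8%. No member was lowest in 6Y. Taking each member relative to its own mean over the 12 arrays, the median member was 0.28 and 0.26 above that mean in the 6Y arrays on the log2 scale. It was 0.12 and 0.03 above it in 6K, and 0.11 above in one 42WKK array and 0.09 below in the other. In the 42Y arrays it was 0.09 and 0.06 below, in 16Y 0.19 and 0.07 below, and in group 1 it was 0.28 and 0.12 below. The groups with the letter Y were thus found at both ends of this order (6Y and 16Y), and so were groups without it (6K and group 1).

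**Figure D1:**
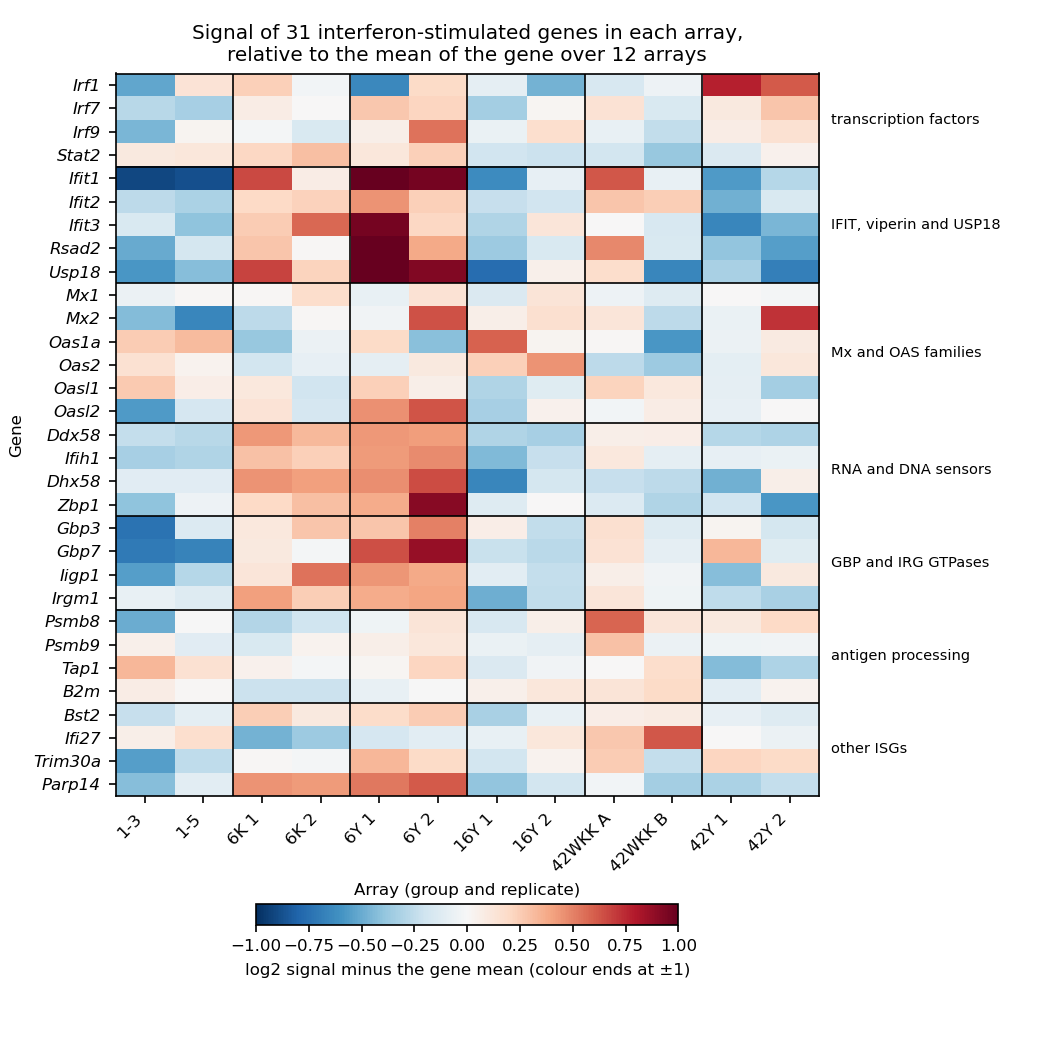
Signal of the 31 measured interferon-stimulated genes (rows, grouped by role) in the 12 arrays (columns, grouped by title), as log2 signal minus the mean of that gene over the 12 arrays. The 6Y columns are mostly red, with 24 and 28 of 31 genes above their own mean, and the first column of 16Y and both columns of group 1 are mostly blue, with 5, 8 and 10 genes above it.

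The F test over the 6 groups (limma, Benjamini-Hochberg adjusted p under 0.05 over 35556 clusters, the rule for every call here) passed 7 of 31 members, against 5.43% of all clusters. They were Ddx58, Gbp7, Ifih1, Parp14, Irgm1, Ifit1 and Ifit2. At an unadjusted p under 0.05 the F test passed 22 of 31 members, against 26.4% of all clusters. The 16Y arrays were lower than the 6Y arrays in 6 called members and higher in none, against 1.2% of all clusters called lower and 1.78% called in either direction. The 42Y arrays were also lower than 6Y in 6 called members and higher in none, against 1.04% called lower and 1.83% called in either direction. Both comparisons use the same pair of 6Y arrays and are not independent of each other. Over all 31 members the median log2 difference was -0.42 for 16Y minus 6Y and -0.47 for 42Y minus 6Y. The median over all clusters was 0.04 and 0.00. Over the 11788 clusters with a mean log2 signal of at least 6 it was -0.05 in both. When only these were tested, 11.9% and 7.19% were called lower and 5.14% and 4.09% higher. Clusters of higher signal thus leaned the same way as the members, with a smaller median difference. The sets are unlike, since the member median covers all 31 genes and 14 of these had a mean log2 signal below 6. Both 16Y arrays lay below both 6Y arrays in 22 of 31 members, against 21.6% of all clusters, and both 42Y arrays lay below both 6Y arrays in 20 of 31, against 21.9%.

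These counts rest on single arrays. The count for 16Y minus 6Y fell to 0 without either 6Y array or either 16Y array, and to 2 or 3 without any 1 array of groups 1, 6K or 42WKK. The count for 42Y minus 6Y fell to 0 without 6Y replicate 1 and to 2 or 3 without any other 1 array. Without the pair of 6K arrays, whose records conflict as those of 42Y do, 2 and 3 members were called. Calls over all clusters fell as well, from 634 in 16Y minus 6Y to 62 and 29 without a 6Y array and to 8 without either 16Y array, and from 652 in 42Y minus 6Y to 104 without 6Y replicate 1. In these fits each of the called differences kept its sign.

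The cytosolic RNA sensors included the member with the smallest p over the 6 groups, Ddx58. Ddx58 (transcript cluster 10512067) encodes RIG-I, which binds viral RNA with a triphosphate end. Its log2 signal was 6.80 and 6.77 in group 1, 7.47 and 7.37 in 6K, 7.48 and 7.46 in 6Y, 6.74 and 6.71 in 16Y, 7.10 and 7.11 in 42WKK, and 6.76 and 6.73 in 42Y. All 4 arrays of 6K and 6Y were above the 8 others, and the 42WKK arrays lay between these and the rest with no overlap. Ddx58 was 1.67-fold lower in 16Y than in 6Y (log2 difference -0.74, 95% confidence interval -0.94 to -0.54, adjusted p = 0.018). It was 1.65-fold lower in 42Y than in 6Y (log2 difference -0.72, 95% confidence interval -0.92 to -0.52, adjusted p = 0.0087). In 42Y minus 42WKK the log2 difference of Ddx58 was -0.36 (95% confidence interval -0.56 to -0.16, adjusted p = 0.085), which did not pass.

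Ifih1 (cluster 10483110) encodes MDA5, the sensor of long double-stranded RNA. Its signal was 7.12 and 7.15 in group 1, 7.74 and 7.69 in 6K, 7.87 and 7.92 in 6Y, 7.01 and 7.21 in 16Y, 7.55 and 7.35 in 42WKK, and 7.37 in both 42Y arrays. Again all 6K and 6Y arrays lay above every other array. Ifih1 was 1.72-fold lower in 16Y than in 6Y (log2 difference -0.78, 95% confidence interval -1.03 to -0.54, adjusted p = 0.027). The log2 difference of Ifih1 in 42Y minus 6Y was -0.52 (adjusted p = 0.054). Dhx58 (cluster 10391207) encodes LGP2, a regulator of the other two. It read 5.54 and 5.53 in group 1, 6.10 and 6.05 in 6K, 6.11 and 6.30 in 6Y, 5.00 and 5.47 in 16Y, 5.42 and 5.39 in 42WKK, and 5.17 and 5.71 in 42Y. The 6K and 6Y arrays were again the 4 highest, but no comparison called Dhx58 (adjusted p = 0.052 in 16Y minus 6Y).

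Zbp1 (cluster 10490150), a sensor of left-handed nucleic acid that can trigger cell death, had signals of 5.04 and 5.39 in group 1, 5.64 and 5.74 in 6K, 5.81 and 6.35 in 6Y, 5.31 and 5.44 in 16Y, 5.31 and 5.14 in 42WKK, and 5.25 and 4.86 in 42Y. The 6Y and 6K arrays were the 4 highest, and the 6Y arrays differed by more than those of any other group for this gene. Zbp1 was 2.04-fold lower in 42Y than in 6Y (log2 difference -1.03, 95% confidence interval -1.50 to -0.55, adjusted p = 0.0496), close to the threshold.

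**Figure D2:**
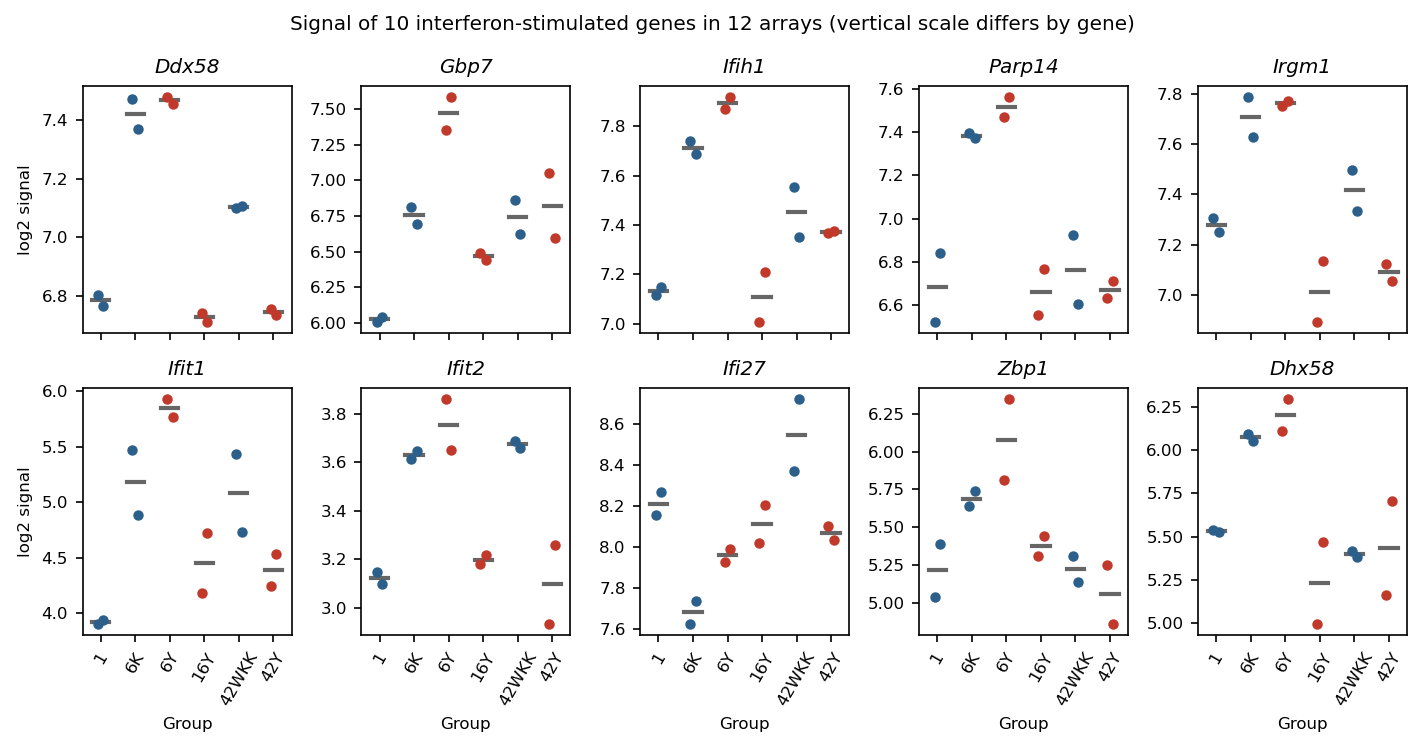
Log2 signal of 10 interferon-stimulated genes in each array (points) with the group mean (bars), red for groups whose title ends in Y and blue for the others, each panel on its own scale. In the panels of Ddx58, Ifih1, Parp14, Irgm1, Ifit1, Zbp1 and Dhx58 the 6K and 6Y means are the highest pair, while Ifi27 has its lowest values in 6K, at 7.63 and 7.74.

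The IFIT genes, viperin and Usp18 had the largest median difference of the 7 roles in 16Y minus 6Y, -1.02 on the log2 scale. Ifit1 (cluster 10462623) encodes a protein that binds foreign RNA lacking a complete cap. Its signal was 3.90 and 3.93 in group 1, 5.47 and 4.88 in 6K, 5.93 and 5.77 in 6Y, 4.18 and 4.73 in 16Y, 5.43 and 4.74 in 42WKK, and 4.24 and 4.53 in 42Y. The 6Y arrays were the highest and both group 1 arrays the lowest. The arrays of 6K and of 42WKK lay far apart within their groups. Ifit1 lay below the array median in both arrays of group 1, of 16Y and of 42Y, and in 42WKK replicate B. The lower side of the Ifit1 differences that follow thus rested on signals under that median. Ifit1 was 2.63-fold lower in 16Y than in 6Y (log2 difference -1.40, 95% confidence interval -2.04 to -0.76, adjusted p = 0.0499) and 2.76-fold lower in 42Y than in 6Y (log2 difference -1.46, 95% confidence interval -2.10 to -0.82, adjusted p = 0.042).

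Ifit2 (cluster 10462613), a related protein that limits viral translation, lay below the array median in all 12 arrays. It read 3.15 and 3.10 in group 1, 3.61 and 3.65 in 6K, 3.86 and 3.65 in 6Y, 3.18 and 3.22 in 16Y, 3.69 and 3.66 in 42WKK, and 2.93 and 3.26 in 42Y. All 6 arrays of 6K, 6Y and 42WKK were above all 6 of the other groups. Ifit2 was 1.58-fold lower in 42Y than in 6Y (log2 difference -0.66, 95% confidence interval -0.95 to -0.37, adjusted p = 0.043), and its difference in 42Y minus 42WKK was -0.58 (adjusted p = 0.064). The array design has several near-identical IFIT, GBP, OAS and Trim30 genes, and their clusters may share signal.

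Ifit3, Rsad2 and Usp18 did not pass in any comparison. Usp18 encodes the protease that removes ISG15 and blocks the type I receptor, and it had the largest log2 differences of the set, -1.51 for 16Y minus 6Y (adjusted p = 0.067) and -1.66 for 42Y minus 6Y (adjusted p = 0.054). Rsad2 encodes viperin, which makes a chain-terminating nucleotide, and its log2 difference was -1.02 for 16Y minus 6Y and -1.23 for 42Y minus 6Y. The highest array of Usp18 and of Rsad2 was 6Y replicate 1, at 6.91 and 6.60. In both comparisons all 5 measured genes of this role were lower at an unadjusted p under 0.05, which 18.1% of all clusters passed in 16Y minus 6Y and 16% in 42Y minus 6Y, in either direction.

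Of the GTPases, which attack the membranes around intracellular pathogens, 2 of 4 measured genes were called lower in 16Y and 1 in 42Y. Gbp7 (cluster 10496569), a guanylate-binding protein, had signals of 6.00 and 6.04 in group 1, 6.81 and 6.70 in 6K, 7.36 and 7.58 in 6Y, 6.49 and 6.44 in 16Y, 6.86 and 6.62 in 42WKK, and 7.05 and 6.59 in 42Y. Both 6Y arrays were above all others and both group 1 arrays below all others. Gbp7 was 2.01-fold lower in 16Y than in 6Y (log2 difference -1.004, 95% confidence interval -1.37 to -0.64, adjusted p = 0.032). It also had the smallest p of any member in 6Y minus 6K, where its log2 difference of 0.72 (95% confidence interval 0.35 to 1.08) had an unadjusted p of 0.0019 and an adjusted p of 0.73.

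Irgm1 (cluster 10385500), a regulator of the immunity-related GTPases, read 7.31 and 7.25 in group 1, 7.79 and 7.63 in 6K, 7.75 and 7.77 in 6Y, 6.89 and 7.13 in 16Y, 7.50 and 7.33 in 42WKK, and 7.13 and 7.06 in 42Y. The 6K and 6Y arrays were the 4 highest, and the arrays of 16Y and 42Y were the 4 lowest. Irgm1 was 1.68-fold lower in 16Y (log2 difference -0.75, 95% confidence interval -1.01 to -0.48, adjusted p = 0.032) and 1.59-fold lower in 42Y (log2 difference -0.67, 95% confidence interval -0.94 to -0.40, adjusted p = 0.032), each against 6Y. Gbp3 and Iigp1 had differences of -0.48 and -0.58 in 16Y minus 6Y and did not pass. Their lowest array was 1-3, at 4.34 for Gbp3 and 8.35 for Iigp1.

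Parp14 (cluster 10439249) encodes an ADP-ribosyltransferase induced by interferon. Its signal was 6.52 and 6.84 in group 1, 7.40 and 7.37 in 6K, 7.47 and 7.56 in 6Y, 6.55 and 6.76 in 16Y, 6.92 and 6.60 in 42WKK, and 6.63 and 6.71 in 42Y. All 6K and 6Y arrays were above the 8 others, whose ranges overlapped. Parp14 was 1.81-fold lower in 16Y (log2 difference -0.86, 95% confidence interval -1.20 to -0.52, adjusted p = 0.036) and 1.80-fold lower in 42Y (log2 difference -0.85, 95% confidence interval -1.19 to -0.51, adjusted p = 0.032), each against 6Y.

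Several members did not take this course. Ifi27 (cluster 10397975), a mitochondrial protein induced by type I interferon, read 8.16 and 8.27 in group 1, 7.63 and 7.74 in 6K, 7.93 and 7.99 in 6Y, 8.02 and 8.21 in 16Y, 8.37 and 8.72 in 42WKK, and 8.10 and 8.04 in 42Y. The 42WKK arrays were the 2 highest and the 6K arrays the 2 lowest. Ifi27 was the only member called in 42WKK minus 6K, where it was 1.82-fold higher (log2 difference 0.86, 95% confidence interval 0.56 to 1.17, adjusted p = 0.030), against 0.554% of all clusters called higher and 1.01% in either direction. That call was lost without any 1 array of 6K, 6Y, 16Y or 42WKK. At an unadjusted p under 0.05, 3 members were higher and 6 lower in 42WKK, against 15% of all clusters in either direction, and both 42WKK arrays lay below both 6K arrays in 14 of 31 members, against 26.9% of all clusters.

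The genes of antigen processing differed little between 16Y and 6Y, with a median log2 difference of -0.13. B2m, the light chain of MHC class I, ranged from 12.15 to 12.57 over the 12 arrays, and Psmb9, an immunoproteasome subunit, from 6.95 to 7.40. Tap1, a subunit of the peptide transporter, had its lowest signals in the 42Y arrays, at 6.65 and 6.77, and its log2 difference was -0.46 in 42Y minus 42WKK (adjusted p = 0.10). Psmb8, another immunoproteasome subunit, was highest in 42WKK replicate A at 8.05. No member of this role passed in any comparison, and in 16Y minus 6Y none of the 4 had an unadjusted p under 0.05.

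In the Mx and OAS families, which block viral nucleocapsids and make the activator of RNase L, no gene passed either. Mx1 lay between 2.85 and 3.17 in every array, below the array median. Oasl2 ranged from 5.02 in array 1-3 to 6.22 in 6Y replicate 2, with a log2 difference of -0.69 in 16Y minus 6Y (adjusted p = 0.094). Oas2 had its 2 highest signals in 16Y, at 5.20 and 5.41, opposite to most members. Of the transcription factors Irf7, Irf9, Stat2 and Irf1, none was called. Irf1, a factor induced chiefly by interferon gamma, was highest in 42Y at 7.28 and 7.11, above all 10 other arrays, with a log2 difference of 0.80 from 42WKK (95% confidence interval 0.13 to 1.47, adjusted p = 0.22). Bst2, which tethers budding virus, had a log2 difference of -0.42 in 16Y minus 6Y (adjusted p = 0.11), and Trim30a one of -0.33.

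In mice of 42 weeks, the comparison of KK-Ay with KK called no member, against 1.85% of all clusters (limma). At an unadjusted p under 0.05, 9 of 31 members differed, 7 lower and 2 higher in 42Y, against 17.3% of all clusters. An analysis of variance on these 4 arrays passed 4 members unadjusted, against 10.7% of all clusters, and 0 after adjustment. The smallest adjusted p was that of Ifit2, 0.064. The median log2 difference over the members was -0.16, where that over all clusters was 0.02, and both 42Y arrays lay below both 42WKK arrays in 11 of 31 members, against 22.7% of all clusters. By role, the IFIT, viperin and Usp18 genes were lower in 42Y in 5 of 5 cases, with log2 differences from -0.70 to -0.27, and the transcription factors were higher in 4 of 4, from 0.19 to 0.80. When only clusters with a mean log2 signal of at least 6 were tested, 3 of 17 members were called lower in 42Y, against 9.03% of those clusters called lower and 14.6% in either direction. Without 42Y replicate 2, 1 of 31 members was called, against 1.41% of all clusters.

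In 6Y minus 6K no member was called, where 0.00281% of all clusters were (limma), and 3 of 31 members had an unadjusted p under 0.05, against 5.28% of all clusters. All 3 (Gbp7, Oasl2 and Ifit1) were higher in 6Y. The mean was higher in 6Y in 28 of 31 members, with a median log2 difference of 0.18 against 0.00 over all clusters, and both 6Y arrays were above both 6K arrays in 17 of 31, against 17.6% of all clusters. The 95% confidence interval was widest for Usp18, from -0.09 to 1.49. For this gene a difference of nearly the size seen in 16Y minus 6Y stayed within it, which need not hold for other members. The 4 sensors had log2 differences from 0.05 (Ddx58) to 0.39 (Zbp1) in 6Y minus 6K, against -0.97 to -0.70 in 16Y minus 6Y. Over all 6 arrays with a Y against the 6 others no member was called either, against 0.208% of all clusters, and 9 members had an unadjusted p under 0.05, 6 higher and 3 lower, against 12.3% of all clusters. In 42Y minus 16Y no member was called, against 0.399% of all clusters, and 5 had an unadjusted p under 0.05, against 13.9%. A further test compared 42Y minus 42WKK with 6Y minus 6K. It asked whether the difference between titles with and without a Y changed between the labels 42 and 6. It called no member, against 0.143% of all clusters. In that test 12 members had an unadjusted p under 0.05, against 13.2% of all clusters, 11 of them with a lower difference at 42, and the smallest adjusted p was 0.16, for Ifi27.

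**Figure D3:**
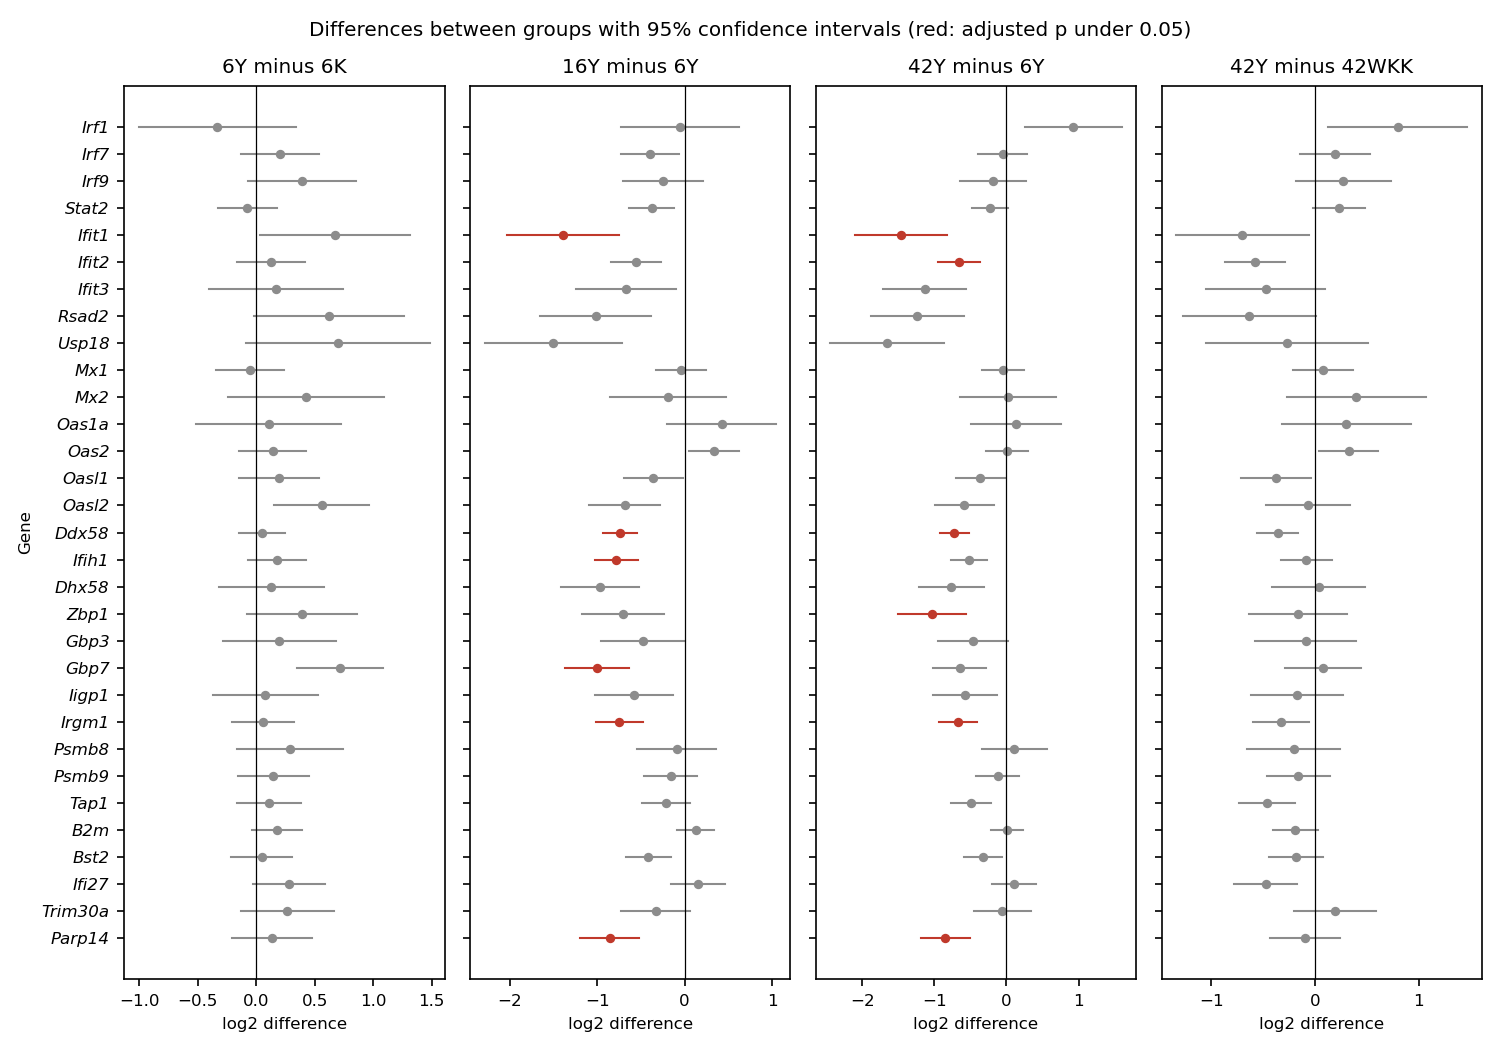
Log2 difference of the 31 genes (points) with 95% confidence intervals (lines) in 4 comparisons, red where the adjusted p is under 0.05 and each panel on its own scale. In 16Y minus 6Y and in 42Y minus 6Y 6 genes each are red and lie left of 0, and in 6Y minus 6K and 42Y minus 42WKK none is red.

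Among the arrays without a Y, most members were lower in group 1 than in 6K. This comparison was added after the values were seen. In 6K minus 1, 24 of 31 members were higher in 6K, with a median log2 difference of 0.40 against -0.04 over all clusters. Over clusters with a mean log2 signal of at least 6 the median was 0.07. When only these were tested, 11.6% were called higher and 3.24% lower. Both 6K arrays were above both group 1 arrays in 20 of 31 members, against 22.4% of all clusters. At an unadjusted p under 0.05, 16 members were higher in 6K and 2 lower, against 17% of all clusters in either direction. Ddx58 was the 1 member called, 1.56-fold higher in 6K (log2 difference 0.64, 95% confidence interval 0.44 to 0.84, adjusted p = 0.040), against 0.298% of all clusters called higher and 0.405% in either direction. This call was lost without any 1 array of groups 1, 6K, 6Y, 16Y or 42WKK, and 4 members were called after centring each array on its median, where 1.86% of all clusters were.

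Other genes of the pathway were taken from lists by role, with 73 genes measured. The 8 interferon genes were not called in any comparison, and Ifnb1 (3.28 to 4.01) and Ifng (3.55 to 4.16) lay under the array medians, which ranged from 4.74 to 4.88. At an unadjusted p under 0.05, limma passed 1 of the 8 in 16Y minus 6Y and 2 in 42Y minus 6Y, against 18.1% and 16% of all clusters. Those that passed were all lowest in 6Y of the pair compared. In each comparison 6 of the 8 interferon genes had a higher mean than in 6Y and 2 a lower one. Of 26 other interferon-induced genes, 22 had a lower mean in 16Y than in 6Y and 4 a higher one. Against 1.2% of all clusters called lower, 6 of the 26 genes were called lower and none higher. By smallest p these began with Ifi35 (log2 difference -0.75, adjusted p = 0.030), Cmpk2, a nucleotide kinase next to Rsad2 (-1.21, adjusted p = 0.038), and Parp12 (-0.61, adjusted p = 0.038). In 42Y minus 6Y 19 of the 26 had a lower mean and 7 a higher one. Against 1.04% of all clusters called lower, 3 of the 26 genes were called lower. These included Trim25, the ubiquitin ligase that activates RIG-I (-0.61, adjusted p = 0.022), and Rnf213, a large ubiquitin ligase (-0.64, adjusted p = 0.028). Cmpk2 was the other (-1.17, adjusted p = 0.039). Ifi35 was also lower in 42WKK than in 6K (-0.75, adjusted p = 0.025), and Parp12 was higher in 6K than in group 1 (0.71, adjusted p = 0.045).

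Upstream of the induced genes the receptors had a median log2 difference of -0.20 in 16Y minus 6Y, with 4 of 6 lower, and the kinases and factors one of -0.21, with 4 of 7 lower. Of the sensors and adaptors 8 of 11 were lower, with a median of -0.13. In 42Y minus 6Y 5 of 6 receptors were lower, with a median of -0.14. There 6 of 7 kinases and factors were higher (median 0.15), as were 6 of 11 sensors and adaptors (median 0.03). In 6K minus 1 the means of all 6 receptors were higher in 6K, with a median log2 difference of 0.45 and none called. Of the 7 kinases and factors 1 was called, Irf2, a repressor of many interferon-induced promoters, which was higher in 16Y than in 6Y (log2 difference 0.59, adjusted p = 0.042). Irf2 read 8.23 and 8.20 in 6Y, 8.14 and 8.29 in 6K, and from 8.47 to 8.87 in the 8 other arrays. Of 7 inhibitors 1 was called, Socs3, the feedback inhibitor of JAK kinases. Socs3 read 8.42 and 7.14 in 42Y and from 5.02 to 6.22 in the 10 other arrays. It was higher in 42Y than in 42WKK (log2 difference 2.47, 95% confidence interval 1.58 to 3.36, adjusted p = 0.026) and than in 6Y (2.21, adjusted p = 0.033). Also higher in 42Y than in 42WKK were Ifngr2, the second chain of the interferon gamma receptor (log2 difference 0.58, adjusted p = 0.046), and Sting1, the adaptor of cyclic dinucleotide sensing (1.00, adjusted p = 0.041). These were the 3 of the 73 genes called in 42Y minus 42WKK, against 1.85% of all clusters. The 8 antigen presentation genes outside the set were not called in any comparison.

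Markers of endothelial and stellate cells were lower in 16Y and in 42Y than in 6Y, as most interferon-stimulated genes were. Of 8 endothelial markers, all 8 were lower in 16Y than in 6Y, with a median log2 difference of -0.87. Against 1.2% of all clusters called lower, 4 of these 8 markers were called (Cdh5, Kdr, Clec4g and Lyve1). All 8 were also lower in 42Y than in 6Y, with none called. In 6K all 8 were higher than in group 1. Against 0.298% of all clusters called higher, 3 of these 8 markers were called. The log2 of their summed signal was 10.98 and 11.19 in 6K, 11.01 and 11.42 in 6Y, 10.21 and 10.43 in 16Y, 10.23 and 9.98 in group 1, 10.77 and 10.72 in 42WKK, and 10.88 and 10.59 in 42Y. No defining endothelial marker lay below the array median in any of the 12 arrays.

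The 8 stellate cell markers were all lower in 16Y and in 42Y than in 6Y. Against 1.2% and 1.04% of all clusters called lower, 1 and 2 of these markers were called. In 6K all 8 stellate markers were higher than in group 1, with a median log2 difference of 0.37 and none called. Their summed signal was 10.69 and 10.60 in 6K, 10.49 and 11.03 in 6Y, 10.47 and 10.39 in 16Y, 10.27 and 10.48 in group 1, 10.70 and 10.56 in 42WKK, and 10.48 and 10.11 in 42Y. Of 11 Kupffer cell and macrophage markers, 9 were lower in 16Y and 10 in 42Y than in 6Y and none was called. All 11 were higher in 6K than in group 1, with a median log2 difference of 0.55 and none called. Their summed signal was 10.43 in both 6K arrays, 10.36 and 11.07 in 6Y, 10.44 and 10.70 in 16Y, 9.68 and 10.08 in group 1, 10.12 and 10.18 in 42WKK, and 10.56 and 10.21 in 42Y. The list medians of the endothelial, stellate and Kupffer markers differed by more between the pair of 6Y arrays than that of the interferon-stimulated genes. Single members still differed between these arrays, in either direction. Relative to its own mean Irf1 read -0.65 and 0.19, and Rsad2 1.15 and 0.38. The 7 monocyte and neutrophil markers were all higher in 42Y than in 42WKK, with a median log2 difference of 1.13. Retnlg was called, against 0.934% of all clusters called higher. The 7 markers were also all higher in 42Y than in 6Y, with a median of 0.89. Against 0.793% of all clusters called higher, 2 of the 7 were called. In 16Y 6 of 7 were higher than in 6Y, with a median of 0.09. In 16Y minus 6Y 6 of 8 T cell markers and 6 of 7 B cell markers had a higher mean, with medians of 0.16 and 0.09. The median was 0.00 for NK cell and -0.02 for plasmacytoid dendritic cell markers, with none of these called. Most T, B and NK cell markers had little signal, with 5 of 8, 5 of 7 and 6 of 7 below the array median in all 12 arrays. So did 2 of 6 plasmacytoid dendritic cell markers, a list that also holds Bst2, a member of the set. Hepatocyte markers had a median log2 difference of -0.12 in 16Y minus 6Y, with none of 9 called. The marker calls, like those of the members, rest on 2 arrays per group. The part of these cell types in the differences of the interferon-stimulated genes was not tested.

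**Figure D4:**
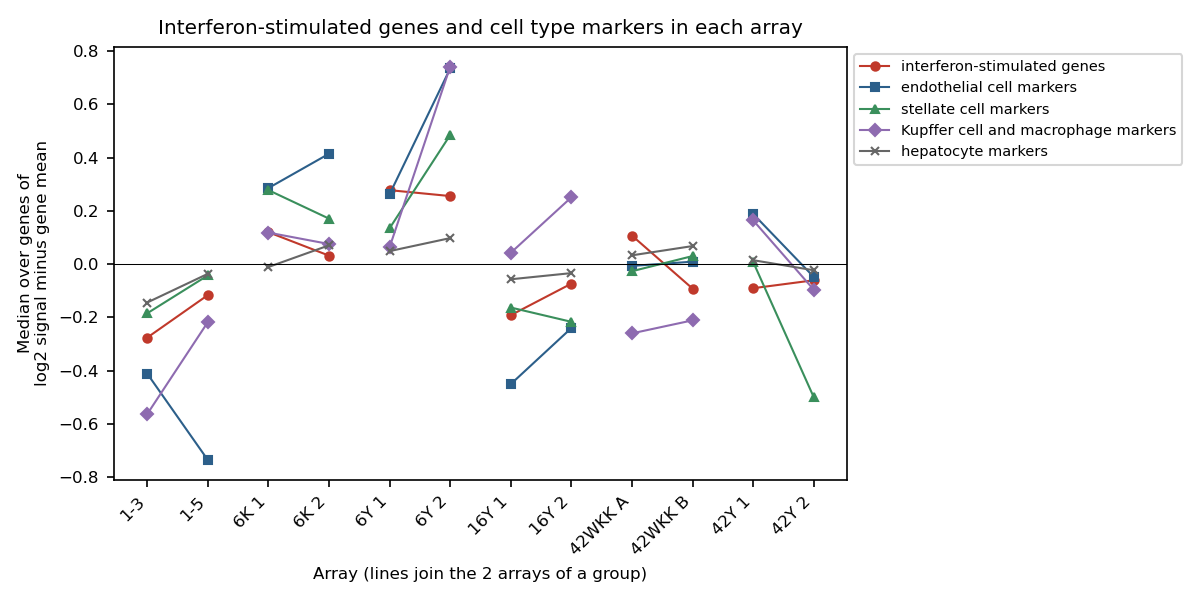
Median over the genes of a list of log2 signal minus the mean of each gene over the 12 arrays, for the 31 interferon-stimulated genes and 4 cell type marker lists, with lines joining the 2 arrays of a group. The interferon-stimulated genes reach 0.28 and 0.26 in 6Y, where the endothelial markers read 0.26 and 0.73, and both lists lie below 0 in group 1 and in 16Y.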

How the data were processed

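RNA was measured on 12 arrays, 2 in each of 6 groups taken from the sample titles. The log2 values per transcript cluster were deposited by the authors, who made them with Affymetrix Expression Console (named in the submitters' processing notes) and its robust multichip analysis (sketch) algorithm. The methods name a mouse exon array, the clusters are those of a mouse gene array, and the genome build of the clusters is not given in the sources used. A linear model with a mean for each group was fitted to these values (lmFit and eBayes of limma 3.58.1, no trend, R 4.3.3), and p was adjusted over 35556 clusters by the Benjamini-Hochberg method. Of these, 21789 carried 1 symbol, 1621 several and 12146 none. The members, the pathway and marker lists and the tests were chosen with earlier results of these data known. Array-by-array values are given for the members called in any comparison, filled up to 10 by the F test p. Up to 4 pathway genes per list are named by smallest p. The comparison 6K minus 1 was added after the values were seen. Simulated data were used to test the fit. Depth does not apply to arrays, and with 2 per group their number limits the precision. Alternatives covered normalization, filters, a variance trend, arrays left out and a replicate block.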

Additional observations from a re-analysis of the deposited data

How the results depend on the processing

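The 14 called differences of single members were recomputed in 272 alternative fits, of which 135 passed and 137 did not, with no change of sign. Ddx58 in 42Y minus 6Y was lost in 2 of its 20 alternatives, Zbp1 in 42Y minus 6Y in 16 of 19 and Ifit1 in 16Y minus 6Y in 15 of 19. Over the fits that leave out one array, the count of members called ranged from 0 to 7 in 16Y minus 6Y, 0 to 3 in 42Y minus 6Y, 0 to 1 in 42WKK minus 6K, 0 to 1 in 6K minus 1, 0 to 1 in 42Y minus 42WKK and 1 to 8 in the F test. Over the same fits the count of all clusters called ranged from 8 to 659, 104 to 489, 37 to 315, 6 to 118, 52 to 500 and 138 to 1690, in that order of comparisons. Testing only clusters with a mean log2 signal of at least 6, which kept 17 members, gave 3 in 42Y minus 42WKK (14.6% of all clusters tested). It gave 5 in 42WKK minus 6K (12.4%), 7 in 6K minus 1 (14.9%) and 11 in the F test (43.4%). It gave 1 in the 6 arrays with a Y against the others (4.65%) and 1 in 42Y minus 42WKK against 6Y minus 6K (5.28%). In this setting 17.1% of all clusters tested were called in 16Y minus 6Y and 11.3% in 42Y minus 6Y. The counts of members for these comparisons in this setting are not given here. The shares alone thus do not show how the members compare with clusters of like signal. Testing only clusters with 1 symbol gave 11 of 31 in 16Y minus 6Y (5.41% of clusters tested), 13 in 42Y minus 6Y (5.54%), 3 in 42WKK minus 6K (2.97%), 6 in 6K minus 1 (3.35%), 18 in the F test (15.6%), 1 in 42Y minus 42WKK (4.59%) and 1 in the arrays with a Y against the others (1.34%). Both settings test fewer clusters and call a larger share of them. A variance trend gave 3 in 42WKK minus 6K (2.38%), 4 in 6K minus 1 (2.24%), 12 in the F test (10.5%) and 1 in 42Y minus 42WKK (3.13%), and array median centring gave 4 in 6K minus 1 (1.86%). The cause was not tested. Analysis of variance on the 4 arrays of 42 weeks passed 4 members unadjusted (10.7%). Without the 6K arrays, 2 were called in 16Y minus 6Y (0.546%) and 3 in 42Y minus 6Y (1.35%). With the replicate number as a block over 8 arrays, 0 members were called in 16Y minus 6Y (0.045%) and 0 in 42Y minus 6Y (0.174%). Same-numbered arrays share only a number, with correlations of their deviations from -0.036 to 0.055. With 2 arrays in a group, a fit without one of them takes the spread of the lone array from the other groups.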
